A study of Mus musculus with 6 samples.

Results

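Ybx1 and Ybx3 are the Y-box cold-shock genes with deposited transcript models in this series, and their RNA was followed through a chromatin capture of telomeres in MEL cells, a mouse erythroleukemia line of C57BL/6 origin. A model was taken as a member when at least 50% of its exon bases lay within the span of either gene in the RefSeq table of GRCm38.p6, the assembly also known as mm10. This gave 3 models out of 7959: 2 in Ybx3 and 1 in Ybx1. All 3 passed the filter on low counts, as did 5385 models in all.

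Chromatin of formaldehyde-crosslinked cells was captured with TH59-DB, a telomere probe of the pyrrole-imidazole polyamide class. There were 2 libraries of TH59-DB capture, 2 of capture by masked TH59-DB, the negative control of the labels, and 2 of input chromatin. All were total RNA libraries of cells grown in the same medium, with no other treatment or genotype named. Library totals, recovered from the deposited FPKM values, ran from 1803723 to 3122558 reads, so that 1 read was worth 0.320 to 0.554 CPM, which here means reads per 1000000 of the library total. A replicate number is given for just 1 library per group, here called library 2, and the labels do not say whether the libraries came from separate cultures, so the spread below may be technical.

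The pair was chosen by measured values, those of TH59-DB against masked TH59-DB. Of all models with a lower value in TH59-DB, the short Ybx3 model had the smallest p in that comparison. Values of that comparison are therefore given as a description. The comparisons with input were not used in the choice, but they share libraries with it.

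Y-box proteins carry a cold-shock domain that binds single-stranded RNA and DNA. Ybx1, also called YB-1, is a core component of messenger ribonucleoproteins that packages mRNA and affects its translation and stability. Ybx3, also called dbpA or MSY4, is a close relative known as a translational repressor in mouse germ cells. The family takes its name from the Y-box, an inverted CCAAT element of promoters. The values below concern the RNA of these genes and not their proteins.

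The spliced Ybx3 model had 5 blocks and 695 bases, between 131368393 and 131380968 on chromosome 6, within a gene span of 131364858 to 131388450. Its blocks measured 168, 92, 211, 131 and 93 bases, from the end of the gene towards its start, and its nearest block lay 7482 bases from the annotated start site. The Ybx3 start-site model was a single block of 488 bases, from 131387969 to 131388456, which began 6 bases before the start site and reached 481 bases downstream of it. Of its bases, 98.8% lay in the span. The files of library number 1 list it on the plus strand and those of number 2 on no strand, while Ybx3 lies on the minus strand. Sense and antisense reads can therefore not be told apart for it, and it need not be part of the Ybx3 mRNA. The spliced Ybx1 model had 5 blocks and 816 bases, between 119278298 and 119282872 on chromosome 4, within a gene span of 119277327 to 119296265, while the start site of its RefSeq promoter entry is at 119294513. Its blocks measured 70, 267, 88, 299 and 92 bases, and its nearest block lay 11641 bases from the start site. No model at the Ybx1 start site was analysed here. In the files of number 2 the spliced models listed 9 block ends for Ybx3 and 16 for Ybx1, with the same first start and total length. The map of the models shows these positions.

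**Figure D1:**
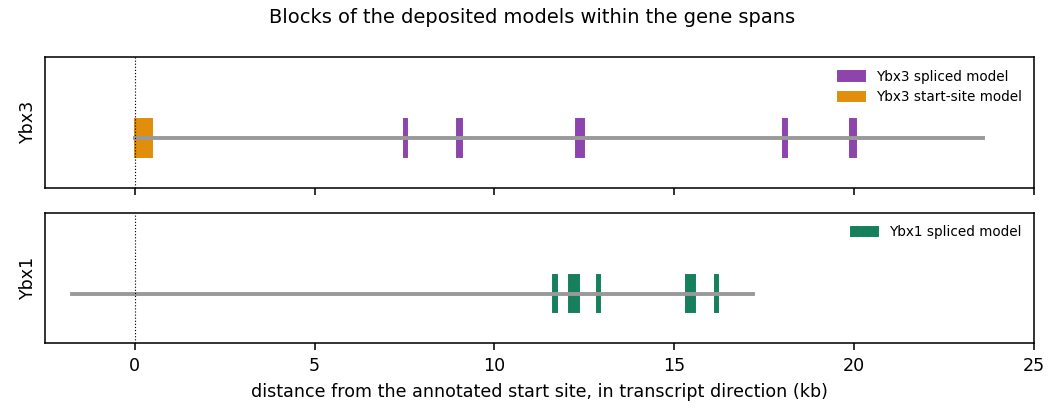
Blocks of the 3 models (coloured boxes) on the gene spans (grey lines), drawn by distance in kilobases from the annotated start site (dotted line) in the direction of transcription. The Ybx3 start-site model sits at the start site, whereas the nearest blocks of the spliced models lie 7482 bases (Ybx3) and 11641 bases (Ybx1) from it.

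The 250 bases before each start site, from RefSeq promoter sequences of GRCm38.p6, are shown because the Ybx3 start-site model overlaps this window by 6 bases and because the family is named after a promoter element. Both genes lie on the minus strand, and the windows are chr6:131388451-131388700 for Ybx3 and chr4:119294514-119294763 for Ybx1. Capitals mark each CCAAT, the motif searched on both strands (as CCAAT or ATTGG).
Ybx3: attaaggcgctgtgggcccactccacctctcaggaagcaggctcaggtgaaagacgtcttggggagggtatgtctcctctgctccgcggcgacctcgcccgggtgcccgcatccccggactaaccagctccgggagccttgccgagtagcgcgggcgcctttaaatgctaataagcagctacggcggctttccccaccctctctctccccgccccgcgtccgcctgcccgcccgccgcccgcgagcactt
Ybx1: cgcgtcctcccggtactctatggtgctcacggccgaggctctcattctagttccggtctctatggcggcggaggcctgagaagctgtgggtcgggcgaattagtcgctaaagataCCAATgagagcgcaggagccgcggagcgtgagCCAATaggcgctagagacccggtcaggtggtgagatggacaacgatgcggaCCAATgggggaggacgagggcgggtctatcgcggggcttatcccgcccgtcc
The Ybx1 window held 3 CCAAT, starting 135, 103 and 52 bases before the start site, and 0 of the inverted form ATTGG. The Ybx3 window held 0 on either strand. Of 32817 promoter windows of this length, 33.8% held the motif at least once and 2.79% at least 3 times. TTAGGG, the telomere repeat unit, was searched on both strands (as TTAGGG or CCCTAA) without overlapping CCAAT, and was found 0 times in both windows, against 9.32% of all windows with at least 1. The windows were 67.2% (Ybx3) and 62.8% (Ybx1) G and C, against a median of 52.4% over all windows. These matches describe the letters only.

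Facts of the whole series bear on these levels. The most abundant model, 414 bases long and inside Zc3h7a (11143911 to 11144324 on chromosome 16), took 20.8% and 2.77% of the reads of TH59-DB 1 and 2, 50.8% and 13.4% of those of masked TH59-DB 1 and 2, and 14.1% and 14.3% of those of input 1 and 2. Masked TH59-DB 1 had 4341 models at 0 reads, while every model had at least 5 reads in TH59-DB 1. The sources used here do not say whether models were selected on reads in TH59-DB 1. If they were, RNAs absent from that library would be missing from the shares of tested models given below. Of 20 erythroid markers 11 had a model, among them Gata1, Klf1, Zfpm1, Epor and Car1, which are given as a check of the cell type and not by level. The summed level of these 11 ran from 226 to 294 CPM in TH59-DB, 305 to 655 CPM in masked TH59-DB and 519 to 709 CPM in input, so that masked and input sums overlapped. Zfpm1 and Car1 held 52.3% to 54.6% of this sum in TH59-DB, 64.4% to 73.4% in masked TH59-DB and 70.5% to 74.2% in input. In TH59-DB against input 7 of the 11 had negative and 4, Gata1 among them, positive log2 values, and 0 passed in edgeR (1 at an unadjusted p under 0.05) or DESeq2. Of all 5385 tested models, 49.1% had negative values in this comparison. No model of the globin genes Hba-a1, Hba-a2, Hbb-bs and Hbb-bt, or of Tal1, Tfrc, Alas2, Fech and Slc4a1, was analysed here. Of 12 markers of other cells 2 had a model, Itga2b and Laptm5, whose summed level ran from 6.18 to 19.96 CPM in TH59-DB, 1.52 to 24.7 CPM in masked TH59-DB and 13.7 to 31.5 CPM in input. The part of these marker levels in the Ybx results was not tested.

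By mean level, spliced Ybx3 RNA was 4.17-fold lower in the TH59-DB captures than in the masked captures and 4.04-fold lower than in the input. Ybx1 RNA was 3.95-fold lower in TH59-DB than in masked TH59-DB and 9.01-fold lower than in input. The differences from input did not pass the test over all models. In the masked captures spliced Ybx3 averaged 1.03 times its input level. Ybx1 lay below both input values in both masked libraries, as did 14.4% of tested models. Whether the genes differ in this was not tested.

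The spliced Ybx3 model, the main measure of Ybx3 mRNA here, had 32.2 and 22.8 CPM in TH59-DB 1 and 2, from 58 and 59 reads. It had 153 and 75.9 CPM in masked TH59-DB 1 and 2, from 302 and 237 reads, and 70.0 and 152 CPM in input 1 and 2, from 209 and 434 reads. Both TH59-DB libraries lay below all 4 others, and the masked and input libraries overlapped, with the higher value in library 1 for the masked probe and in library 2 for the input. Of tested models, 23.5% had both TH59-DB values below both input values, and 14.7% below both masked values. The share below all 4 was not computed, and the comparison with the masked probe chose the genes. The means were 27.5 ± 6.62 CPM in TH59-DB, 115 ± 54.7 CPM in masked TH59-DB and 111 ± 58.0 CPM in input (SD, n = 2 each). The 95% exact (Clopper-Pearson) binomial interval was 17.3 to 29.4 CPM in TH59-DB 2, the lowest value, and 136 to 172 CPM in masked TH59-DB 1, the highest. Such intervals cover counting error only, since no molecular identifiers are named.

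The Ybx3 start-site model was the least abundant of the 3. It had 7.21 and 3.09 CPM in TH59-DB, from 13 and 8 reads, against 49.7 and 24.7 CPM in masked TH59-DB (98 and 77 reads) and 29.1 and 52.9 CPM in input (87 and 151 reads). The group means were 5.15 ± 2.91 CPM in TH59-DB, 37.2 ± 17.7 CPM in masked TH59-DB and 41.0 ± 16.8 CPM in input (SD, n = 2 each). As with the spliced model, both TH59-DB libraries lay below all others, and masked and input libraries overlapped. Its interval in TH59-DB 2 was wide, 1.33 to 6.09 CPM.

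The spliced Ybx1 model was the most abundant member in the input. It had 32.7 and 62.6 CPM in TH59-DB, from 59 and 162 reads, against 104 and 272 CPM in masked TH59-DB (205 and 849 reads) and 283 and 575 CPM in input (846 and 1641 reads). The 3 groups did not overlap and ran in the order TH59-DB, masked TH59-DB, input, although masked TH59-DB 2 and input 1 were neighbours with overlapping counting intervals (254 to 291 CPM and 265 to 303 CPM). Of tested models, 14.4% had both masked values below both input values. The share with this order of all 3 groups was not computed. The means were 47.6 ± 21.1 CPM in TH59-DB, 188 ± 119 CPM in masked TH59-DB and 429 ± 206 CPM in input (SD, n = 2 each). The values are shares of each library total, and neither the number of cells nor the RNA per cell was measured.

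**Figure D2:**
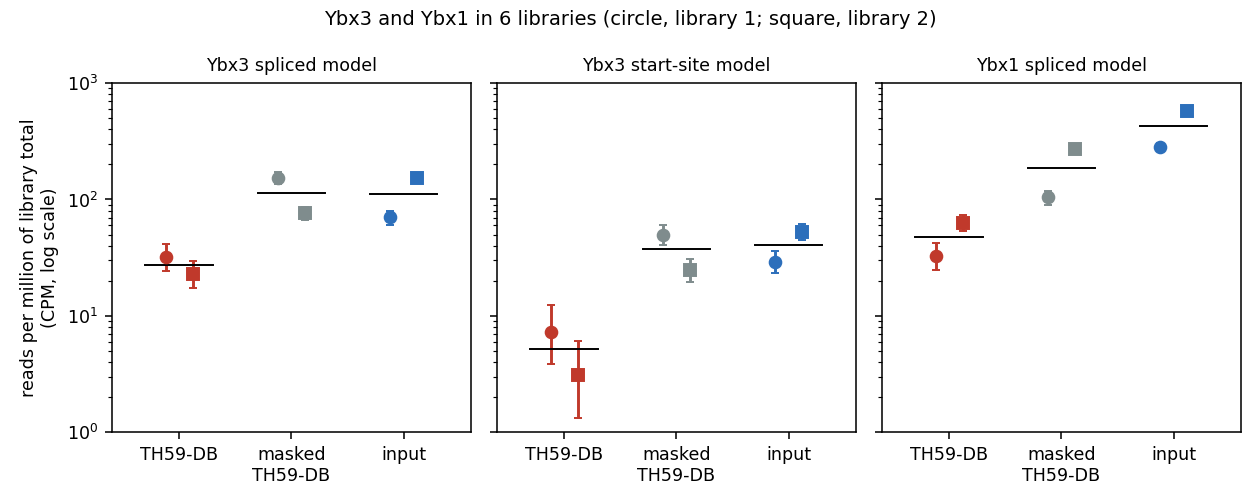
Level of each model in every library, in CPM of the library total on a log axis, with circles for library 1, squares for library 2, black lines for group means and bars for 95% exact binomial intervals of counting error. All 3 models sit lowest in TH59-DB, and the masked values of both Ybx3 models overlap those of the input (115 against 111 CPM on average for the spliced one).

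Scaled per kilobase of model, which allows levels of different genes to be compared, Ybx1 had 40.1 and 76.7 CPM per kilobase in TH59-DB against 46.3 and 32.8 for spliced Ybx3. In masked TH59-DB the Ybx1 values were 127 and 333 and those of Ybx3 220 and 109. In input they were 347 and 704 for Ybx1 and 101 and 219 for Ybx3. Ybx1 was thus the higher gene in 4 of 6 libraries, and Ybx3 in library 1 of both captures. In TH59-DB 1 the order lay within counting error, as the 95% exact interval of Ybx1 over Ybx3 was 0.593 to 1.27.

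The comparison of TH59-DB with input asks which RNAs of the chromatin the telomere probe retained. In it 0.0371% of tested models passed as lower and 3.58% as higher (edgeR quasi-likelihood test, Benjamini-Hochberg adjusted p under 0.05), and 0 of the 3 Ybx models passed. The biological coefficient of variation of the fit was 0.702, and a p that misses the threshold at this spread does not show that levels were alike. At an unadjusted p under 0.05, 5.14% of tested models were lower, and the 3 Ybx models were among them. DESeq2 called 33 of 5798 models lower, with Ybx1 among them and neither Ybx3 model. The spliced Ybx1 model had a mean ratio of 0.111, or 9.01-fold lower, and its fitted log2 change was -2.87 (SE 0.85, adjusted p = 0.123). Within library number 1 it was 8.66-fold lower and within number 2 9.19-fold lower. The labels give no pairing, so folds within a number, here and below, rest on matching libraries by number alone. The closeness of these 2 folds depends on that matching and is not a measure of replication. The Ybx3 start-site model was 7.97-fold lower, at -3.02 on the log2 scale (SE 0.76, adjusted p = 0.0613). It was 4.04-fold lower within number 1 and 17.1-fold lower within number 2. The spliced Ybx3 model was 4.04-fold lower, at -1.92 on the log2 scale (SE 0.72, adjusted p = 0.234), or 2.18-fold within number 1 and 6.67-fold within number 2. All 3 models had TH59-DB values below both input values, as did 23.5% of the tested models. Of tested models, 0.483% had a lower log2 fold change than the start-site model, 0.669% a lower one than Ybx1 and 3.88% a lower one than spliced Ybx3. These ranks and the p-values above are not independent of the choice of the pair, which used the same TH59-DB libraries.

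The Ybx1 and start-site calls depended on the scaling, the filter and the tool, and the fold changes on the libraries. Among alternatives that kept all 6 libraries and had no replicate block, Ybx1 passed with DESeq2 (adjusted p = 0.00989). It also passed in edgeR on library totals without TMM factors (adjusted p = 0.0133). These settings called 33 of 5798 and 23 of 5385 models lower, against 2 of 5385 in the main fit. Ybx1 did not pass in edgeR with DESeq2 size factors (adjusted p = 0.108) or without the filter on low counts (0.141). Fits that leave 1 library in a group have no replicate there, so just their fold changes are given. The log2 fold change of Ybx1 was -4.43 with TH59-DB 2 left out, against -1.88 with TH59-DB 1 left out. Among the same alternatives with all 6 libraries, the start-site model passed in edgeR without the filter on low counts (adjusted p = 0.0390). That setting called 25 of 7959 models lower. The start-site model did not pass in edgeR with DESeq2 size factors (0.0807) or library totals (0.0513), or in DESeq2 (0.0749). Spliced Ybx3 passed in 0 of these alternatives (adjusted p from 0.200 to 0.363). Leaving out 1 library at a time, the log2 fold change of the start-site model ran from -3.23 to -2.84.

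The comparison of masked TH59-DB with input shows what the control probe brought down. In it 0.0% of tested models passed as lower (0 models by edgeR, 159 at an unadjusted p under 0.05, or 2.95%, and 17 by DESeq2) and 0.26% as higher. Of the 3 Ybx models 0 passed in edgeR, also at an unadjusted p under 0.05, and in DESeq2. The spliced Ybx3 model had a mean ratio of 1.03 and a log2 change of 0.06 (SE 0.69, adjusted p = 1.00). The direction differed between library numbers, since masked TH59-DB was 2.19 times the input within number 1 and 0.499 times within number 2. The Ybx3 start-site model did the same, with ratios of 1.71 and 0.466 and a log2 change of -0.16 (SE 0.68, adjusted p = 0.985). The spliced Ybx1 model had a mean ratio of 0.438 and a log2 change of -1.41 (SE 0.80, adjusted p = 0.830), with ratios of 0.367 and 0.473 within the numbers. Ybx1 was the 1 model of 3 whose masked values both lay below the input values, as did 14.4% of the tested models. The sign for both Ybx3 models turned with the library left out: without masked TH59-DB 1 the spliced model had -0.90 and the start-site model -1.11, and without masked TH59-DB 2 they had 0.99 and 0.78.

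The level of Ybx3 in masked TH59-DB 1 moved with the Zc3h7a model in the denominator. With that model left out of every library total, spliced Ybx3 had 40.6 and 23.4 CPM in TH59-DB, 311 and 87.7 CPM in masked TH59-DB and 81.5 and 177 CPM in input. Ybx1 on the same scale had 41.3 and 64.4 CPM in TH59-DB, 211 and 314 CPM in masked TH59-DB and 330 and 671 CPM in input. Both genes kept their lowest values in TH59-DB.

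Between TH59-DB and masked TH59-DB, the contrast behind the choice of the genes, 0.0% of tested models passed as lower and 1.41% as higher (0 lower by edgeR, 91 at an unadjusted p under 0.05, or 1.69%, and 0 by DESeq2). As a description, the log2 fold change was -2.87 for the Ybx3 start-site model, -1.98 for spliced Ybx3 and -1.46 for Ybx1. The ratios of mean CPM were 0.138, 0.240 and 0.253 in the same order. Within number 1 the models were 6.90-fold, 4.77-fold and 3.18-fold lower, and within number 2 7.98-fold, 3.33-fold and 4.35-fold lower. All 3 had groups that did not overlap, as did 14.7% of tested models in that direction. This comparison shares its TH59-DB libraries with the comparison against input, and its masked libraries with the comparison above.

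**Figure D3:**
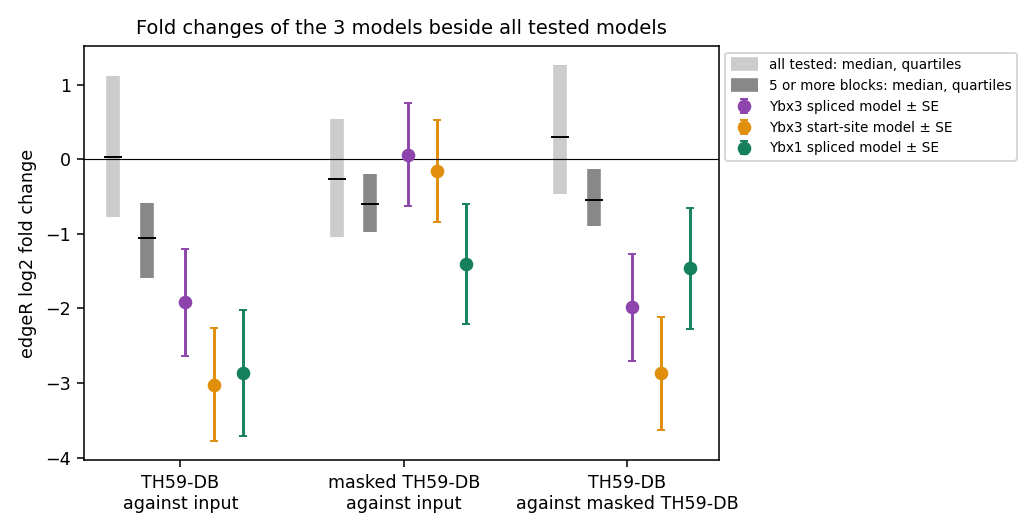
Log2 fold change of each model with its standard error (points and bars) in the 3 comparisons, beside the median and quartiles of all 5385 tested models (light) and of the 178 tested models of at least 5 blocks (dark). The Ybx models lie below the medians of both classes in TH59-DB against input, and the Ybx3 models lie near 0 in masked TH59-DB against input.

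Ratios taken within a library do not depend on its total. Per kilobase, the ratio of spliced Ybx1 to spliced Ybx3 was 0.866 in TH59-DB 1 (95% exact interval 0.593 to 1.27) and 2.34 in TH59-DB 2 (1.73 to 3.21). With the masked probe it was 0.578 in library 1 (0.482 to 0.693) and 3.05 in library 2 (2.64 to 3.54). In the input it was 3.45 in library 1 (2.96 to 4.03) and 3.22 in library 2 (2.90 to 3.59). Both captures of number 1 thus lay apart from the other 4 libraries by more than counting error, whichever probe was used. The mean ratio was 1.60 ± 1.04 in TH59-DB, 1.81 ± 1.75 in masked TH59-DB and 3.33 ± 0.161 in input (SD, n = 2 each). Between TH59-DB and input the log2 ratio differed by -1.23 (exact permutation test over libraries, 2-sided p = 0.333, the smallest that 2 libraries against 2 allow).

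Within Ybx3, the start-site model was at 0.319 and 0.193 of the spliced model per kilobase in the TH59-DB captures, at 0.462 and 0.463 of it with the masked probe, and at 0.593 and 0.496 of it in the input libraries. The groups did not overlap, but the counting interval of TH59-DB 1 (0.160 to 0.589) held both masked values and 1 of the input values. The share of other pairs of models with such an order was not computed. The ratio is also not independent of the choice of the genes, since the start-site model had the smallest p among lower models in that comparison. The log2 ratio in TH59-DB differed from that in input by -1.13 (exact permutation test over libraries, 2-sided p = 0.333, again the smallest possible). The 2 masked values agreed more closely than their counting intervals (0.364 to 0.582 and 0.353 to 0.601).

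**Figure D4:**
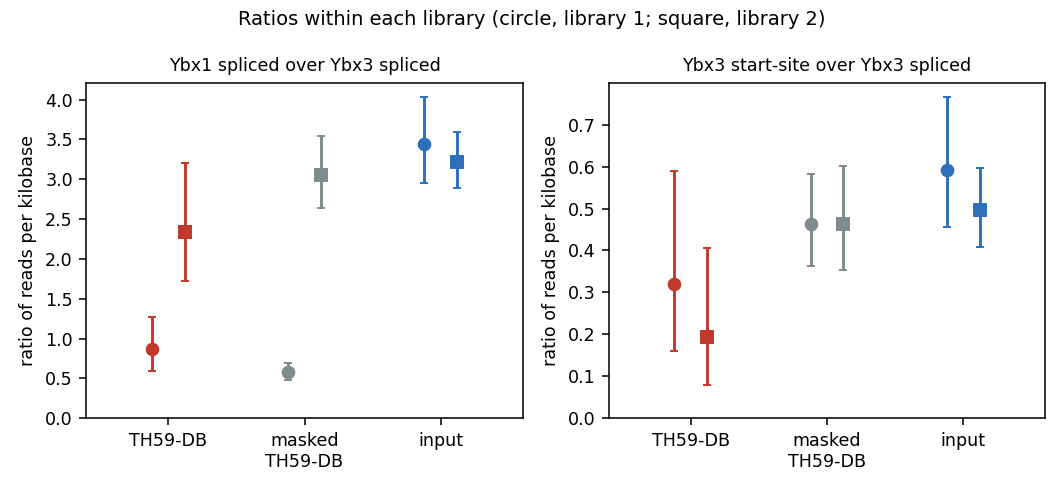
Ratios of reads per kilobase within each library, with circles for library 1, squares for library 2 and bars for 95% exact binomial intervals. On the left, Ybx1 over spliced Ybx3 is below 1 in library 1 of both captures (0.866 with TH59-DB and 0.578 with the masked probe) and at 3.45 and 3.22 in the input, and on the right the Ybx3 start-site model has its lowest share in TH59-DB.

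The members were set beside models of similar build, a class defined after their values were seen. Of the 178 tested models of at least 5 blocks, as both spliced members have, 164 (92.1%) had a negative log2 fold change in TH59-DB against input. Over all 5385 tested the share was 49.1%. The median was -1.05 in the class, against 0.03 over all tested. The lower quartile of the class was -1.59, and both Ybx1 (-2.87) and spliced Ybx3 (-1.92) lay below it. In masked TH59-DB against input its median was -0.60 and its upper quartile -0.20, below the 0.06 of spliced Ybx3. The medians of the 3510 tested models of 1 block were 0.43 and -0.08 in these comparisons, against -3.02 and -0.16 for the Ybx3 start-site model.

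Other cold-shock domain or cold-induced genes, and genes of mRNA packaging, were described from lists. Of 7 other cold-shock domain and cold-induced genes, 2 had a model and were tested, and 0 passed in edgeR in any comparison, also at an unadjusted p under 0.05, or in DESeq2. Rbm3, a cold-induced RNA-binding protein gene, had 18.3 and 26.3 CPM in TH59-DB, 23.3 and 66.9 CPM in masked TH59-DB and 35.2 and 73.6 CPM in input, and a log2 fold change against input of -1.04 in TH59-DB (adjusted p = 0.622). Carhsp1, a small cold-shock domain gene, had 0.90 (adjusted p = 0.935), from levels of at most 8.97 CPM in any library, against a median of 0.03 over all tested models. No model of Ybx2, the germ-cell member of the family, or of the pseudogene Ybx1-ps2 was analysed here.

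Of 36 other mRNA-binding protein genes, 26 had a model and 24 were tested. In TH59-DB against input 0 passed in edgeR (2 at an unadjusted p under 0.05) or DESeq2. Negative values were found for 22 of 24, against 49.1% of all tested models and 92.1% of those of at least 5 blocks. The list is not of that build, since many of its models had fewer blocks, such as Ncl (4) and Hnrnpu (3). Some had 1 block, and 37.0% of all tested models of 1 block had negative values. The median was -1.14, against 0.03 over all tested models and -1.05 over those of at least 5 blocks. In masked TH59-DB against input 0 passed in either tool or at an unadjusted p under 0.05 in edgeR, with a median of -0.46 against -0.26. Pabpc1, the cytoplasmic poly(A)-binding protein gene, had 124 and 159 CPM in TH59-DB, 96.9 and 554 CPM in masked TH59-DB and 704 and 1000 CPM in input, with log2 fold changes against input of -2.42 in TH59-DB (adjusted p = 0.241) and -1.74 in masked TH59-DB (adjusted p = 0.811). Its captures were all below the input, as for Ybx1. Ncl, the nucleolin gene, had -0.83 (adjusted p = 0.787) in TH59-DB against input. Hnrnpu, which encodes a nuclear scaffold RNA-binding protein, had -0.61 (adjusted p = 0.871), and Hnrnpa2b1, a splicing regulator gene, had -1.66 (adjusted p = 0.397). Both Ybx3 start-site and Ybx1 values lay below the lowest of the 24 (-2.42), and spliced Ybx3 within their range. This order turned without TH59-DB 2, where Pabpc1 had -3.56 and Hnrnpa2b1 -3.43, both below the -3.23 of the start-site model.

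**Figure D5:**
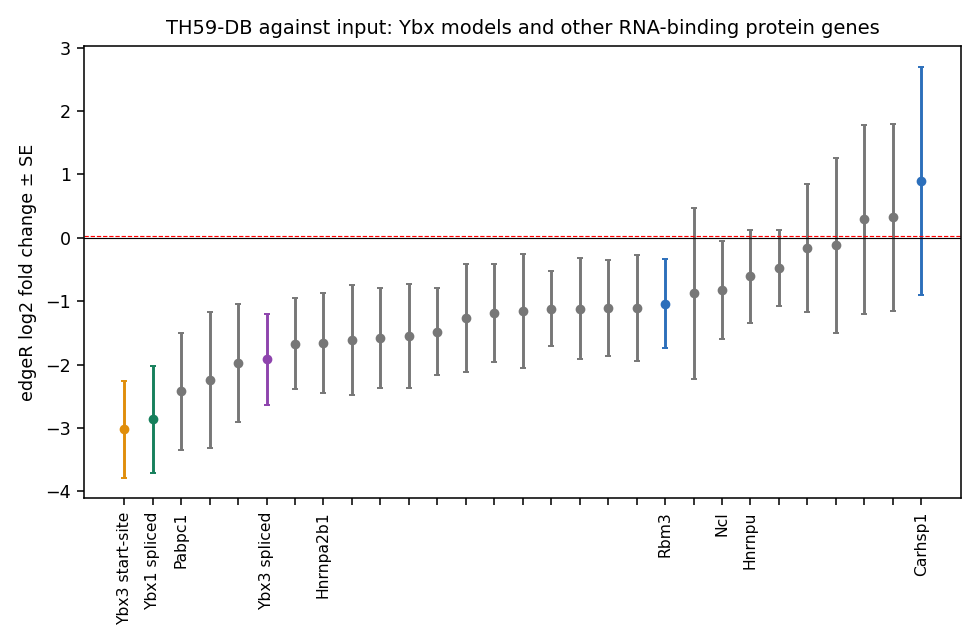
Log2 fold change in TH59-DB against input, with its standard error, ordered by value, with names for the genes given in the text. Points are the 3 Ybx models (coloured), 2 other cold-shock domain or cold-induced genes (blue) and 24 other mRNA-binding protein genes (grey). The dashed line is the median of all tested models (0.03), and the Ybx3 start-site model (-3.02) and Ybx1 (-2.87) are the lowest points.

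The genes with the most similar profiles were found by the root mean square difference of log2(CPM + 1), centred on its mean over the 6 libraries, among 3099 other genes. For spliced Ybx3 these were Ssr3 (0.214), a gene of the translocon-associated complex of the endoplasmic reticulum, Glyr1 (0.274), Ptges3-ps (0.295) and Stoml2 (0.298), against a median difference of 1.45. Ssr3 had 11.6 and 6.95 CPM in TH59-DB, 43.6 and 29.8 CPM in masked TH59-DB and 21.4 and 38.9 CPM in input, with its highest value in masked TH59-DB 1 as for Ybx3. For Ybx1 they included Fth1 (0.199), the ferritin heavy chain gene, the histone gene H4c4 (0.259) and Rps24 (0.267), a ribosomal protein gene, against a median of 1.60. Fth1 had 32.7 and 57.5 CPM in TH59-DB, 99.5 and 209 CPM in masked TH59-DB and 214 and 395 CPM in input. The Ybx1 and spliced Ybx3 profiles differed by 1.00 from each other, which placed Ybx1 at rank 767 among the profiles nearest to Ybx3, and the start-site model differed from spliced Ybx3 by 0.422. The likeness describes 6 libraries and carries no test.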

How the data were processed

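Per the submitters' processing notes, cutadapt, HISAT2, Cufflinks and featureCounts were used with mouse build mm10; versions, roles and the strand setting are not given in the sources used here. The kit keeps strand and takes total RNA, per the labels' protocols. The deposited counts are whole reads per assembled transcript model. The deposited FPKM values equal the count over model length and a library total, except that a count of 0 carries the FPKM of 1 read in 4 files, so FPKM served only to recover library totals. Files of library numbers 1 and 2 were joined on chromosome, starts and ends (7695 models) or on chromosome, first start and length (264, among them both spliced Ybx models). Genes came from RefSeq spans of GRCm38.p6, where a model in several spans took the shortest gene and genes of at most 1000 bases took only single-block models at most 8 times their length.

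Counts were tested with edgeR 4.0.16 in R 4.3.3 (library totals, filterByExpr, TMM, robust glmQLFit, group term, all 6 libraries, 2-sided, Benjamini-Hochberg over 5385 models). DESeq2 1.42.0, other scalings, no filter, a replicate block and leaving out each library were alternatives. Members, lists and tests were chosen with earlier results of these data known. Named genes were all Ybx models, of the cold-shock and mRNA-binding lists any member past the threshold and otherwise the 4 most abundant, and the 4 most similar profiles per gene; some genes that meet this rule are not reported here. Depth limits precision at low counts, such as the 8 reads of the start-site model in TH59-DB 2.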

Additional observations from a re-analysis of the deposited data

How the results depend on the processing

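Of 197 tested log2 fold changes, of 18 results under 11 settings, 175 kept their direction and their side of the threshold, 9 moved past it and 13 reversed. The number of models passing in TH59-DB against input was 195, and 312 without the low-count filter and 350 with DESeq2. In masked TH59-DB against input it was 14, and 57 with DESeq2 size factors, 108 with library totals without TMM, 113 without the filter and 105 with DESeq2. In TH59-DB against masked TH59-DB it was 76, and 167, 155, 206 and 236 in the same order. Leaving out 1 library gave 102 to 756, 0 to 1413 and 32 to 1720 in these comparisons, with the highest number without masked TH59-DB 2 in each. Ybx1 in TH59-DB against input had -3.17 with library totals without TMM and -2.52 with DESeq2, both past the threshold. The Ybx3 start-site model in masked TH59-DB against input turned to 0.20 with DESeq2 size factors, 0.051 without the filter and 0.19 with DESeq2, and the cause was not tested. DESeq2 size factors moved the median of all tested models in TH59-DB against input to 0.40, against 0.03, and relative to that median Ybx1 was at -2.91, against -2.90. Its position relative to the median moved more in other settings, to -3.78 with DESeq2 and -3.52 without the filter. Over all 11 settings it ran from -4.91 to -1.88. The spliced Ybx3 ratio in masked TH59-DB against input was 0.847 with the sum of model counts as the total and 1.54 with the library total without the Zc3h7a model, against 1.03.

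Without 1 library at a time, the log2 fold change in TH59-DB against input ran from -2.49 to -1.37 for spliced Ybx3 and from -4.43 to -1.88 for Ybx1. In masked TH59-DB against input it ran from -0.90 to 0.99 for spliced Ybx3, -1.11 to 0.78 for the start-site model and -1.54 to -1.02 for Ybx1. In TH59-DB against masked TH59-DB it ran from -2.87 to -1.01, -3.85 to -1.99 and -2.89 to -0.63 for the same models. The ratios of mean CPM for spliced Ybx3 ran from 0.181 to 0.392 in TH59-DB against input, 0.684 to 1.64 in masked TH59-DB against input and 0.179 to 0.362 in TH59-DB against masked TH59-DB, and those for Ybx1 from 0.0762 to 0.168, 0.242 to 0.663 and 0.174 to 0.458. In TH59-DB against input Hnrnpu ran from -1.58 to 0.16, Rbm3 from -2.28 to -0.15, Ncl from -1.62 to -0.14, Pabpc1 from -3.56 to -1.58 and Hnrnpa2b1 from -3.43 to -0.63. In masked TH59-DB against input Carhsp1 ran from -5.06 to 1.96, Hnrnpu from -0.0071 to 0.84 and Ncl from -0.48 to 0.012.

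The library numbers were not used as pairs in the main fit, since the labels give no pairing. Deviations of libraries with the same number correlated at -0.0021 (TH59-DB with masked TH59-DB), 0.0932 (TH59-DB with input) and 0.110 (masked TH59-DB with input) across models. With the number as a replicate block, 363, 106 and 191 models passed in TH59-DB against input, masked TH59-DB against input and TH59-DB against masked TH59-DB. Of the 363, 118 were lower and 245 higher, out of 5385 tested. With this replicate block Ybx1 had -3.10 in TH59-DB against input (edgeR adjusted p = 0.00340), the start-site model had an adjusted p of 0.00454, Pabpc1 had -2.67 (adjusted p = 0.0309) as 1 of 2 among the 24 mRNA-binding genes to pass, 1 of 11 erythroid markers passed, and spliced Ybx3 in masked TH59-DB against input had -0.0052.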
